A study of Mus musculus with 9 samples.

Results

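The genes described here are 9 members of the retinoic acid system, and they were chosen by name out of the 23366 gene entries of the count tables. They are the receptors *Rara*, *Rarb* and *Rarg*, the uptake and binding genes *Stra6* and *Crabp2*, the enzymes *Aldh1a3* and *Dhrs3*, which make retinoic acid and turn its precursor back, and the enzymes *Cyp26a1* and *Cyp26b1*, which degrade it. All 9 have an entry in both tables. Their RNA was measured by RNA-seq in 6 libraries of mSGc, an epithelial line from the submandibular gland of adult male C57BL/6 mice that became immortal in culture without an introduced gene, and in 3 libraries of IMOK, an immortalised mouse oral keratinocyte line of the same strain. mSGc were grown as monolayers in serum free medium (SFM) at P2, P4, P10 and P25, and in serum containing medium (SCM) at P10 and P25, with 1 library for each condition. SFM holds EGF, FGF, N2 supplement, insulin and dexamethasone, and no retinoic acid was listed among its additives. SCM holds retinoic acid, but also fetal bovine serum, EGF, triiodothyronine, hydrocortisone, insulin, transferrin and selenite, so the part of any 1 agent in a difference between the media cannot be told apart. IMOK were grown in a medium of their own whose composition is not given in the sources used here. The paper puts IMOK at the passage number of the P10 mSGc, and the labels give no passage for them. The labels call the media of mSGc progenitor and differentiating. These names were read as SFM and SCM because the early passages have a library in the progenitor medium only.

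Cells take up retinol, oxidize it to retinal and then to retinoic acid, which enters the nucleus on a binding protein and acts as the ligand of the RARs. RARs pair with RXRs on DNA elements made of direct repeats, keep genes silent through corepressors without ligand, and turn them on through coactivators when the ligand is bound. Among the genes known to respond are several of the system's own parts, including *Rarb*, *Cyp26a1*, *Cyp26b1*, *Stra6*, *Crabp2* and *Dhrs3*. Because CYP26 enzymes and DHRS3 lower retinoic acid, these genes form a feedback loop. In epithelia retinoids are known to hold back keratinization and to favour simple or mucosal differentiation, and retinoic acid takes part in the branching of the developing salivary gland.

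Counted reads per library ran from 6237884 (P25 in SCM) to 18444963 (IMOK replicate 1). Levels are given as TPM, which corrects for gene length and depth, and 3 reads, the limit that a count of 0 allows, set the floor of each gene and cover counting error only. All 5 epithelial markers examined (*Krt5*, *Krt14*, *Trp63*, *Epcam* and *Cdh1*) reached 1 TPM in every library. The summed level of 6 fibroblast markers was 0.874 and 0.32 TPM in SFM and 4.26 and 4.36 TPM in SCM at P10 and P25, 18.7 TPM at P2, 1.23 TPM at P4, and 1.23 to 6.41 TPM in IMOK. No library had more than 3 of the 6 at 1 TPM, and between 0 and 3 of them were at 0. The sum of 5 leukocyte markers was 2.01 to 4.10 TPM in mSGc and 4.72 to 33.5 TPM in IMOK, and that of 4 endothelial markers was at most 0.945 TPM. Of the leukocyte markers only *Cd68* reached 1 TPM in any library, and it was at 4.58 to 33.4 TPM in IMOK. The part of these cells in any result was not tested. IMOK replicate 1 stood apart. Its counts differed from those of replicates 2 and 3 by a chi-square of 150 and 180 per degree of freedom, against 21.3 between replicates 2 and 3 and 37.7 for the closest mSGc pair, P25 in SFM and in SCM. As this library weighs on the estimate of spread, calls of the 9 genes are given with and without it where they change, and those of other genes as counts. Without it, 15.1% of all genes were called higher and 16.3% lower in SFM against IMOK, and 15.7% and 16.2% in SCM. Calls against IMOK in that fit are to be read beside these shares. The labels number the IMOK libraries as replicates but do not say that they came from separate cultures, so p-values measure the spread between these samples, which may be technical. Each mSGc condition has 1 library, so no spread between mSGc replicates enters any p-value. In the main fit the spread comes from the IMOK libraries and from how the medium difference varied between P10 and P25. With the 4 mSGc libraries alone, only the latter enters.

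The upstream sequences of *Rarb*, *Cyp26a1* and *Cyp26b1* are shown because the first pair hold the classical element of a RAR target and the third gene had the largest log2 fold change between the media among the members tested. The sequences are RefSeq's on GRCm38.p6 and give the 250 bases before the annotated start, 5′ to 3′ along the gene. Capitals mark a direct repeat with a spacer of 5 bases (DR5). The half-sites searched on both strands were the consensus AGGTCA, the AGTTCA found in both repeats shown here, the GGTTCA with which the repeat of *Rarb* opens, and the further variant GGGTCA.
*Rarb*, chr14:16575477-16575726, minus strand: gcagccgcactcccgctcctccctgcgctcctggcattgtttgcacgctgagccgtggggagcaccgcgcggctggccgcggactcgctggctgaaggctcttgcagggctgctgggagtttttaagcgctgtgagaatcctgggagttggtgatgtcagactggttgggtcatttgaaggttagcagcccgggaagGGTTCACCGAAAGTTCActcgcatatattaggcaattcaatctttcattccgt
*Cyp26a1*, chr19:37697558-37697807, plus strand: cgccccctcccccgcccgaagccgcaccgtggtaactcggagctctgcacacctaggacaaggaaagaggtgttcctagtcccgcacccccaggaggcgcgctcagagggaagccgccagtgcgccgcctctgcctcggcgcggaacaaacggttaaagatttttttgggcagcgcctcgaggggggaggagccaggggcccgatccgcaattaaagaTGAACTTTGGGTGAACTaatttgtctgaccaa
*Cyp26b1*, chr6:84593811-84594060, minus strand: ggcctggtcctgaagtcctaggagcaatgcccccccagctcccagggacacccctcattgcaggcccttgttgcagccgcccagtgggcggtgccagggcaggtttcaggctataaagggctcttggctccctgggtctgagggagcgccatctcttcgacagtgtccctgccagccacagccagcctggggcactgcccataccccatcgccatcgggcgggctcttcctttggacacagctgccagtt
The repeat of *Rarb* read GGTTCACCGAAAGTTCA on the strand of the gene, at -53 to -37 from the start, and that of *Cyp26a1* read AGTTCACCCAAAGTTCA on the opposite strand, at -32 to -16. A DR5 lay in 32 of 32851 mouse promoter windows of 300 bases (0.0974%), a repeat with a spacer of 2 bases (DR2) in 0.268% and one with a spacer of 1 base (DR1) in 0.222%. Promoter windows were found for 7 of the 9 members, 16 windows in all, and the other 14 windows, those of *Rara*, *Rarg*, *Cyp26b1*, *Stra6* and *Dhrs3*, held none of these repeats in these letters. *Crabp2* and *Aldh1a3* had no window. The half-sites searched include those of the 2 repeats shown, so these matches were given in advance and the shares are no test of them. A match describes letters, not binding.

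Among the receptors, *Rarg* was the most abundant, *Rara* came next and *Rarb* was the lowest, in all 9 libraries. *Rarg*, the main RAR of stratified epithelia (mm9 chr15:102065371-102087914, minus strand), was at 39.2, 50.2, 55.4 and 41.7 TPM in SFM at P2, P4, P10 and P25, at 67.8 and 69.8 TPM in SCM at P10 and P25, and at 67.5, 53.2 and 44.5 TPM in IMOK replicates 1 to 3. Both SCM values lay above all 4 SFM values, while IMOK overlapped SFM and lay below both SCM values, replicate 1 only just. The fold change between SCM and SFM was 0.36 ± 0.24 on the log2 scale (SE), with an adjusted p of 0.950 by edgeR's quasi-likelihood test over 13090 genes. *Rarg* made up 70.2% to 89.1% of the summed TPM of the 3 receptors, with the lowest share in IMOK replicate 1 and the highest at P25 in SCM.

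*Rara*, the broadly expressed RAR (chr11:98799010-98836256, plus strand), was at 9.15, 8.06, 12.6 and 10.1 TPM in SFM at P2, P4, P10 and P25 and at 12.4 and 8.09 TPM in SCM at P10 and P25. In IMOK it was at 28.4 TPM in replicate 1 and at 14.1 and 11.2 TPM in replicates 2 and 3. The media overlapped, and the difference of SCM from SFM was -0.33 ± 0.43 on the log2 scale (adjusted p = 0.991, edgeR). *Rarb*, a RAR that is itself a direct target through the repeat shown above (chr14:17263354-17407724, minus strand), had 12, 4, 4 and 0 reads in SFM at P2, P4, P10 and P25 and 28 and 4 reads in SCM at P10 and P25. As levels these were 0.817, 0.161, 0.314 and 0 TPM in SFM and 1.60 and 0.459 TPM in SCM, with 0.0836 to 0.270 TPM in IMOK. At each passage the SCM library was the higher one, but P2 in SFM lay between the SCM values. At P10 the ratio of SCM to SFM was 4.65, with a 95% interval of 1.63 to 18.3 that covers counting error only. Ratios given at single passages are of counts scaled with the TMM factors of edgeR, and compare 1 library with 1 library. *Rarb* did not pass the filter on low counts. Fitted without that filter, it had a log2 difference of 3.12 ± 1.25 between SCM and SFM and an adjusted p of 0.928 (edgeR).

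**Figure D1:**
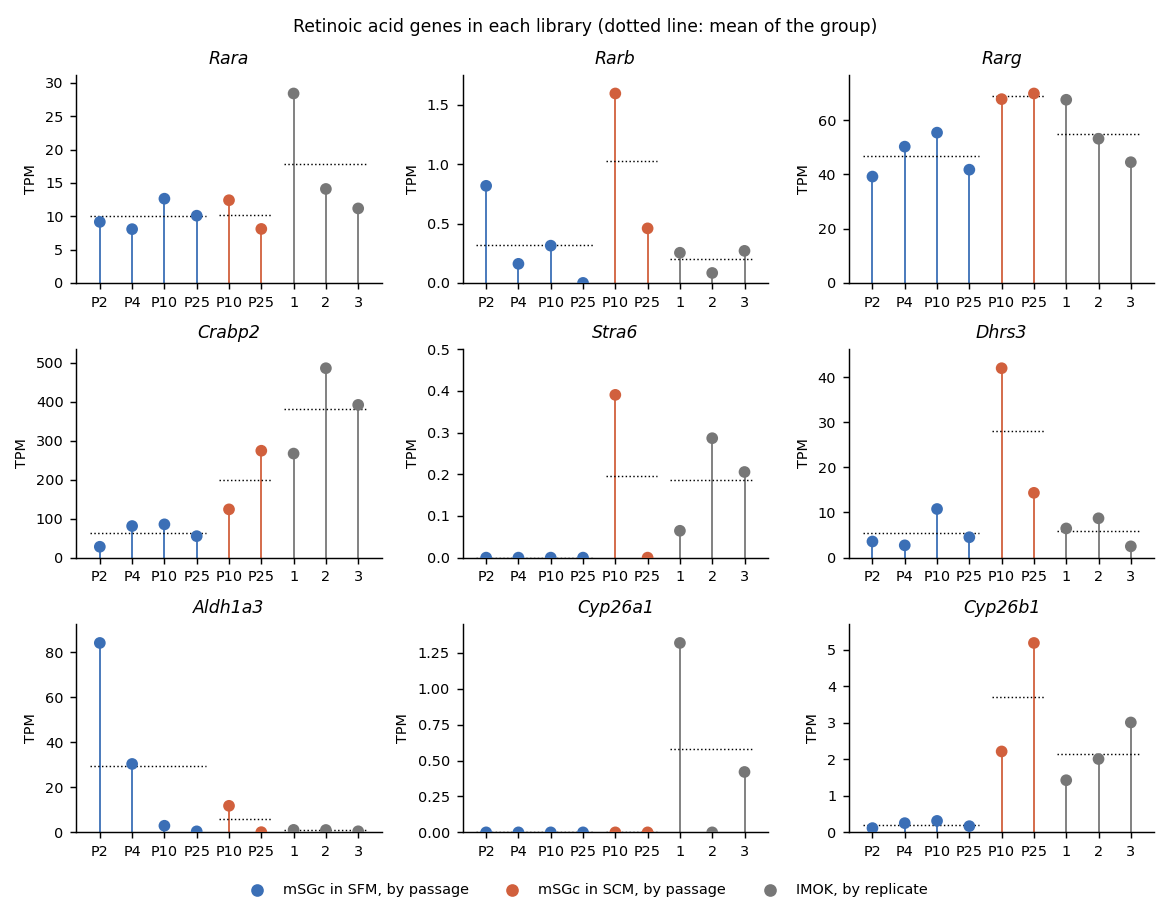
TPM (vertical axis, linear from 0, with a scale for each gene) of the 9 genes in each of the 9 libraries, with SFM in blue and SCM in red by passage and the IMOK replicates in grey. Dotted lines are group means. *Cyp26b1*, *Crabp2*, *Dhrs3* and *Rarg* had both SCM points above all 4 SFM points, and *Aldh1a3* ran from 84.3 TPM at P2 to 0.450 TPM at P25 in SFM.

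*Crabp2*, which delivers retinoic acid to the RARs in the nucleus (chr3:87752615-87757294, plus strand), was the most abundant member in 8 of 9 libraries, all but P2. It was at 27.9, 81.2, 85.5 and 55.2 TPM in SFM at P2, P4, P10 and P25, at 124 and 275 TPM in SCM at P10 and P25, and at 267, 487 and 392 TPM in IMOK replicates 1 to 3. The SFM values lay below all others, and P25 in SCM reached into the range of IMOK. The difference of SCM from SFM was 1.27 ± 0.52 on the log2 scale (unadjusted p = 0.0510, adjusted p = 0.799, edgeR). The ratio was 1.33 at P10 (counting interval 1.17 to 1.51) and 4.28 at P25 (3.80 to 4.84). The test of the difference between these passages gave an adjusted p of 1.000 (edgeR, with 2 residual degrees of freedom, all from IMOK). Against IMOK, *Crabp2* differed by -2.12 ± 0.50 in SFM (adjusted p = 0.0659) and by -0.86 ± 0.47 in SCM (adjusted p = 0.308, edgeR). Without IMOK replicate 1 these became -2.37 (adjusted p = 0.00236) and -1.11 (adjusted p = 0.0420, edgeR), so *Crabp2* then passed the threshold as lower in mSGc in both media.

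*Crabp1*, the sister protein that binds retinoic acid in the cytoplasm, was lower in SCM than in SFM at both passages. It was at 91.8, 78.9, 474 and 18.4 TPM in SFM at P2, P4, P10 and P25 and at 41.6 and 3.44 TPM in SCM at P10 and P25. *Crabp2* thus held 15.3% of the summed TPM of this pair at P10 in SFM and 74.9% at P10 in SCM, 75.0% and 98.8% at P25 in SFM and SCM, and 94.0% to 95.1% in IMOK. The log2 difference of *Crabp1* between SCM and SFM was -3.26 (adjusted p = 0.169, edgeR), and without IMOK replicate 1 it was -3.41 (adjusted p = 0.00185). *Stra6*, the membrane receptor through which cells take up retinol from its carrier (chr9:57976895-58001804, plus strand), had 0 reads in all 4 SFM libraries, 9 reads (0.391 TPM) at P10 in SCM, 0 reads at P25 in SCM, and 2, 9 and 6 reads in IMOK. At P10 the ratio of SCM to SFM had a lower 95% counting limit of 1.31, and at P25, where both libraries were at 0, no difference was detectable at this depth. The floor of the mSGc libraries was between 0.0917 and 0.262 TPM.

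*Aldh1a3*, which makes retinoic acid from retinal (chr7:73535779-73572363, minus strand), had its widest range across the passages. In SFM it was at 84.3 TPM at P2, 30.4 TPM at P4, 2.94 TPM at P10 and 0.450 TPM at P25, so that each later passage had a lower level. In SCM it was at 11.8 TPM at P10 and at 0.0937 TPM (1 read) at P25, and in IMOK at 1.10, 1.06 and 0.477 TPM. P2, P4 and both P10 libraries lay above the IMOK values and P25 in SCM below them, while P25 in SFM was at the level of IMOK replicate 3, with 13 reads in each. P25 differed from P10 by -4.17 ± 1.12 on the log2 scale, with media balanced (unadjusted p = 0.00947, adjusted p = 0.279, edgeR). In a fit of all 9 libraries with log2 of the passage number as covariate the difference between P25 and P10 was -2.98 (adjusted p = 0.0329), and without IMOK replicate 1 it was -3.83 (adjusted p = 0.0177), both by edgeR. The ratio of SCM to SFM was 3.67 at P10 (counting interval 2.67 to 5.14) and 0.179 at P25 (0.00422 to 1.19), where it rests on 1 and 13 reads. The averaged medium difference of 0.35 ± 1.13 (adjusted p = 0.997) turned negative when either P10 library was left out, to -2.40 and -2.37 (edgeR). The difference of the medium effect between passages was -4.21 ± 1.45 on the log2 scale (unadjusted p = 0.0379, adjusted p = 1.000, edgeR).

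*Dhrs3*, which reduces retinal back to retinol and so lowers the supply of retinoic acid (chr4:144482730-144517548, plus strand), was at 3.58, 2.73, 10.8 and 4.52 TPM in SFM at P2, P4, P10 and P25 and at 42.0 and 14.4 TPM in SCM at P10 and P25. IMOK had 6.46, 8.71 and 2.50 TPM, which overlapped SFM and lay below both SCM values. The ratio of SCM to SFM was 3.56 at P10 (counting interval 2.83 to 4.52) and 2.74 at P25 (1.96 to 3.83). On the log2 scale SCM was 1.66 ± 0.59 above SFM (unadjusted p = 0.0311, adjusted p = 0.728, edgeR). Against IMOK the differences were 0.56 ± 0.53 in SFM (adjusted p = 0.567) and 2.22 ± 0.53 in SCM (adjusted p = 0.0623, edgeR). Without IMOK replicate 1 the latter was 2.23 (adjusted p = 0.0110, edgeR).

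*Cyp26b1*, which inactivates retinoic acid by oxidation (chr6:84521408-84543902, minus strand), had the largest log2 difference between the media among the members tested. It had 3, 11, 7 and 7 reads in SFM at P2, P4, P10 and P25, which are 0.117, 0.253, 0.314 and 0.170 TPM. In SCM it had 68 reads (2.22 TPM) at P10 and 79 reads (5.19 TPM) at P25, and in IMOK 1.43, 2.01 and 3.01 TPM. All 4 SFM libraries lay below all SCM and all IMOK libraries, and SCM overlapped IMOK. The ratio of SCM to SFM was 6.46 at P10 (counting interval 2.97 to 16.7) and 26.3 at P25 (12.2 to 67.5). The log2 difference was 3.71 ± 0.82 (unadjusted p = 0.00387, adjusted p = 0.398, edgeR). It passed the threshold without IMOK replicate 1, at 3.76 (adjusted p = 0.0202, edgeR), and with DESeq2, at 3.74 (adjusted p = 0.00244). It did not pass with voom, without TMM factors, without a filter or without the passage term. Nor did it with 9 libraries, with the 4 mSGc libraries alone, or without IMOK replicate 2 or 3. Against IMOK *Cyp26b1* differed by -2.86 ± 0.76 in SFM (adjusted p = 0.0880) and by 0.84 ± 0.63 in SCM (adjusted p = 0.456, edgeR). The first of these passed the threshold without IMOK replicate 1, at -3.22 (adjusted p = 0.00560, edgeR).

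*Cyp26a1*, the other CYP26 enzyme and a target through the repeat shown above (chr19:37772298-37776026, plus strand), had 0 reads in all 6 mSGc libraries, in SCM as in SFM. A count of 0 allows at most between 0.188 and 0.536 TPM in these libraries. In IMOK it had 20, 0 and 6 reads, or 1.32, 0 and 0.420 TPM.

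Across the members, 6 of 9 passed the filter on low counts (all but *Rarb*, *Cyp26a1* and *Stra6*). Between SCM and SFM 0 of the 6 passed an adjusted p of 0.05 in either direction, as did 0% of the 13090 genes tested, higher or lower, although 822 genes and 2 members had an unadjusted p under 0.05. With DESeq2 214 genes and 1 member were called, beside 1.02% of all genes higher and 0.611% lower. With edgeR but without IMOK replicate 1, 358 genes and 1 member were called, beside 1.77% of all genes higher and 1.04% lower. In both cases the member was *Cyp26b1*. The median log2 difference was 0.81 over the 6 members and -0.01 over all genes. By level, 4 of the 6 (*Rarg*, *Crabp2*, *Dhrs3* and *Cyp26b1*) had both SCM values above both SFM values of P10 and P25, as had 21.8% of all genes tested, and 0 of the 6 had both below, as had 9.02%. The same 4 also lay above all 4 SFM values, as did 10.9% of genes. The members were chosen with earlier results of these data known, so these shares are no independent test. In these bulk samples, more cells of a kind and more RNA per cell cannot be told apart.

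**Figure D2:**
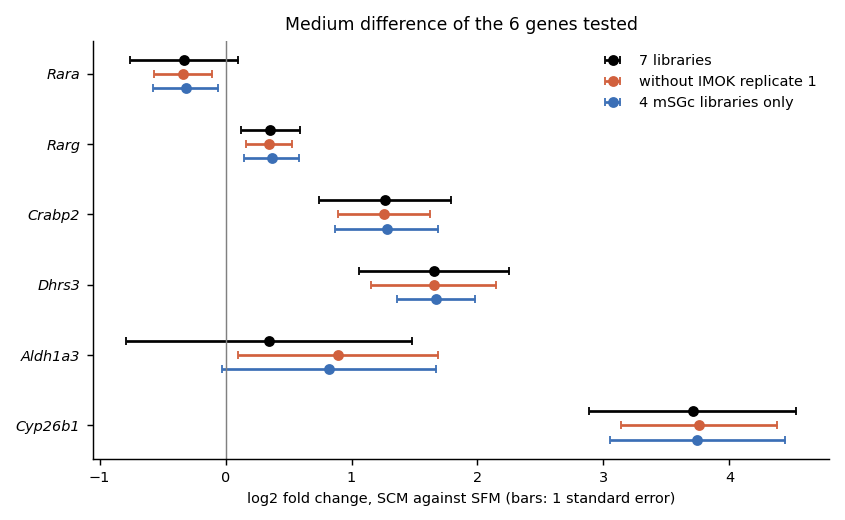
log2 fold change of SCM against SFM (horizontal axis) with 1 standard error for the 6 members tested, by edgeR with 7 libraries (black), without IMOK replicate 1 (red) and with the 4 mSGc libraries of P10 and P25 alone (blue). *Cyp26b1* lies farthest to the right, at 3.71 with 7 libraries, and the estimates of *Rara* and *Rarg* lie within 0.4 of 0.

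Between P25 and P10, 0 of the 6 members passed the threshold, beside 0% of all genes higher and 0% lower, with 1849 genes and 1 member (*Aldh1a3*) at an unadjusted p under 0.05. By contrast, 591 genes were called with DESeq2, 1.54% of all genes higher and 2.97% lower, with *Aldh1a3* among the lower (-4.23, adjusted p = 0.00432). The other 5 members differed by -1.24 (*Dhrs3*) to 0.48 (*Cyp26b1*) on the log2 scale, and their adjusted p ranged from 0.396 to 0.973 (edgeR). The median was -0.17 over the 6 members and -0.05 over all genes. For the difference of the medium effect between the passages 0 members and 0% of genes in either direction passed, and 250 genes and 1 member had an unadjusted p under 0.05.

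mSGc in SFM differed from IMOK in 717 genes, 337 higher (2.57%) and 380 lower (2.90%), and 0 of the 6 members were among them. 2 members, *Cyp26b1* and *Crabp2*, had all 4 SFM libraries below all IMOK libraries, as had 22.7% of the genes tested. mSGc in SCM differed from IMOK in 898 genes, 418 higher (3.19%) and 480 lower (3.67%), again with 0 members. Without IMOK replicate 1 the counts were 3996 genes and 2 members in SFM, beside 15.1% of all genes higher and 16.3% lower. In SCM they were 4063 genes and 3 members, beside 15.7% of all genes higher and 16.2% lower. Both comparisons share the IMOK libraries, and the effects of the line, of its medium, of passage and of the experiment cannot be told apart in them. Passage enters because each mSGc mean averages P10 and P25, while the paper puts IMOK at the passage number of P10. The largest log2 differences of members in SFM were those of *Cyp26b1* and *Crabp2*, both lower than in IMOK, and in SCM that of *Dhrs3*, which was higher. *Rarg* and *Rara* differed from IMOK by at most 0.66 on the log2 scale in either medium, with adjusted p between 0.225 and 0.776 (edgeR). Without IMOK replicate 1, *Rarg* passed the threshold in SCM at 0.58 (adjusted p = 0.0428).

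The other genes of the pathway were taken from a fixed list, chosen with earlier results of these data known. Of these genes 37 had an entry and 28 were tested. They are RXRs, coregulators, binding and storage proteins and enzymes of retinal and retinoic acid synthesis. Between SCM and SFM 0 of the 28 passed the threshold, and their median log2 difference was -0.12. *Crabp1* was the only one called in any alternative fit, as lower in SCM by DESeq2, without IMOK replicate 1 and with the 4 mSGc libraries alone. *Lrat*, which stores retinol as ester and is a known target of retinoic acid, was at 8.24 TPM at P10 in SCM and at most 0.569 TPM in each of the other 5 mSGc libraries, P25 in SCM included (0.179 TPM), so its high level was that of 1 library. *Rdh10*, which makes retinal, was at 157, 44.1, 15.8 and 17.4 TPM in SFM at P2, P4, P10 and P25. In SCM it was at 49.65 and 14.15 TPM at P10 and P25, and in IMOK replicates 1 to 3 at 81.2, 20.2 and 20.9 TPM. *Aldh1a1*, another retinal dehydrogenase, was at 12.7 and 11.1 TPM at P10 in SFM and SCM and at 1.56 and 0.784 TPM at P25. Between P25 and P10 0 of the 28 passed. With DESeq2 *Aldh1a1*, *Aldh1a7* and *Crabp1* were called lower and *Adh7* higher, beside 2.97% of all genes lower and 1.54% higher. Leaving out IMOK replicate 1, 2 of 27 were called higher and 6 lower, beside 7.95% and 8.16% of all genes. With the 4 mSGc libraries alone 2 of 26 were called higher and 3 lower, beside 3.22% and 4.44% of all genes. With 9 libraries 1 of 28 (*Adh7*) was called higher and 0 lower, beside 0.0674% and 0.359%. None was called with limma voom, without TMM factors, without a filter or with at least 10 counts in every library. The same held without IMOK replicate 2 or 3.

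Against IMOK, 2 of the 28 pathway genes were higher in SFM and 0 lower, beside 2.57% and 2.90% of all genes. These were *Crabp1*, by 2.42 on the log2 scale (adjusted p = 0.0217, edgeR), although its level at P25 in SFM (18.4 TPM) lay within the IMOK range of 16.9 to 27.9 TPM and only that at P10 (474 TPM) lay above it among the libraries of the fit, and *Rbp7*, a retinol binding protein, at 2.196 to 9.71 TPM in the SFM libraries and at 0 to 0.195 TPM in IMOK (adjusted p = 0.0388). In SCM 3 were higher and 0 lower, beside 3.19% and 3.67% of all genes. *Rbp7* had 3.73 and 5.36 TPM in SCM (adjusted p = 0.0379), *Nrip1*, a corepressor that retinoic acid is known to induce, was higher by 1.55 on the log2 scale (adjusted p = 0.0480), and *Lrat* had 0 to 0.0233 TPM in IMOK (adjusted p = 0.0366), all by edgeR. In both media 0 pathway genes passed when any 1 mSGc library, or IMOK replicate 2 or 3, was left out. Of the 27 tested without IMOK replicate 1, 7 were called higher and 3 lower in SFM, beside 15.1% and 16.3% of all genes, and 8 higher and 4 lower in SCM, beside 15.7% and 16.2%.

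**Figure D3:**
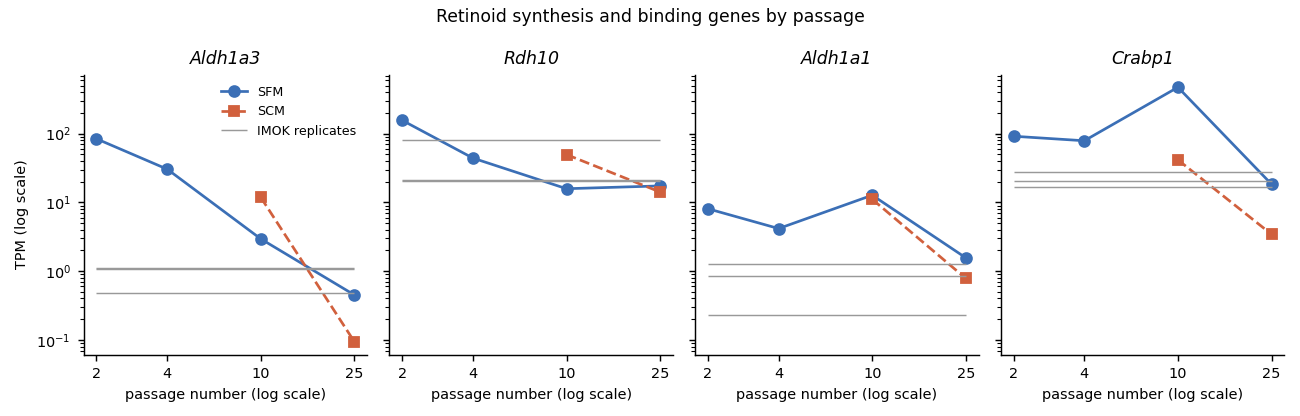
TPM (log scale) of *Aldh1a3*, *Rdh10*, *Aldh1a1* and *Crabp1* against the passage number (log scale), with 1 library a point, SFM in blue, SCM in red and the 3 IMOK replicates as grey lines. *Aldh1a3* in SFM is lower at each later passage, from 84.3 to 0.450 TPM, and *Crabp1* is lower in SCM than in SFM at P10 and P25.

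Of a fixed list of genes known to respond to retinoids, 31 had an entry and 20 were tested. Of the 20, 15 were known to be induced and 5 were squamous genes known to be lowered. The list was chosen with earlier results of these data known, so the shares of all genes beside its counts are no independent test. Between SCM and SFM 0 of the 20 passed the threshold. The median log2 difference was 0.55 over the 15 and 0.51 over the 5, against -0.01 over all genes. *Hoxb5* had 0 reads in all mSGc libraries and passed the filter through IMOK alone, and without it the median of the induced genes was 1.15 over 14. With this even number the median is the midpoint of a wide gap, between *Meis1* (0.549) and *Foxa1* (1.74). With the 4 mSGc libraries alone, 7 of 17 tested were called higher and 0 lower (*Krt4*, *Krt13*, *Krt19*, *Foxa1*, *Gprc5a*, *Tgm2* and the squamous *Sprr1a*), beside 0.754% of all genes higher and 0.276% lower. Without IMOK replicate 1 5 of 19 were called higher (*Krt4*, *Krt19*, *Foxa1*, *Gprc5a* and *Tgm2*) and 0 lower, beside 1.77% and 1.04% of all genes. The same 5 of 20 were called higher with DESeq2, beside 1.02% of all genes higher and 0.611% lower. Other fits called fewer. Without a filter these were *Krt4* and *Tgm2*, and without the passage term or without IMOK replicate 3 *Krt4* alone, all higher. With limma voom, without TMM factors or with at least 10 counts in every library 0 were called. The same held with 9 libraries and without IMOK replicate 2. Fits without 1 mSGc library leave 1 library in its medium, and none of the calls above comes from them.

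*Krt4*, a keratin of mucosal epithelia, was at 88.3 and 94.8 TPM in SCM at P10 and P25, at 3.10, 8.51, 0.204 and 0.386 TPM in SFM at P2, P4, P10 and P25, and at 0.165 TPM or less in IMOK. Its log2 difference between SCM and SFM was 8.04 (adjusted p = 0.0883, edgeR). *Tgm2*, the transglutaminase known as an early target of retinoic acid, was at 108 and 16.1 TPM in SCM and at 9.80 and 1.66 TPM in SFM at P10 and P25, but at 52.6 TPM at P2 in SFM and 45.6 to 78.4 TPM in IMOK. The log2 difference was 3.21 (adjusted p = 0.105, edgeR). *Gprc5a*, an orphan receptor named for its induction by retinoic acid, was at 51.4 and 27.5 TPM in SCM and at 3.36 and 0.852 TPM in SFM at P10 and P25, with 63.8 TPM at P2 and 27.4 TPM at P4. For both genes early SFM cultures overlapped SCM, so the low values were those of P10 and P25 in SFM, and for *Tgm2* also P4.

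**Figure D4:**
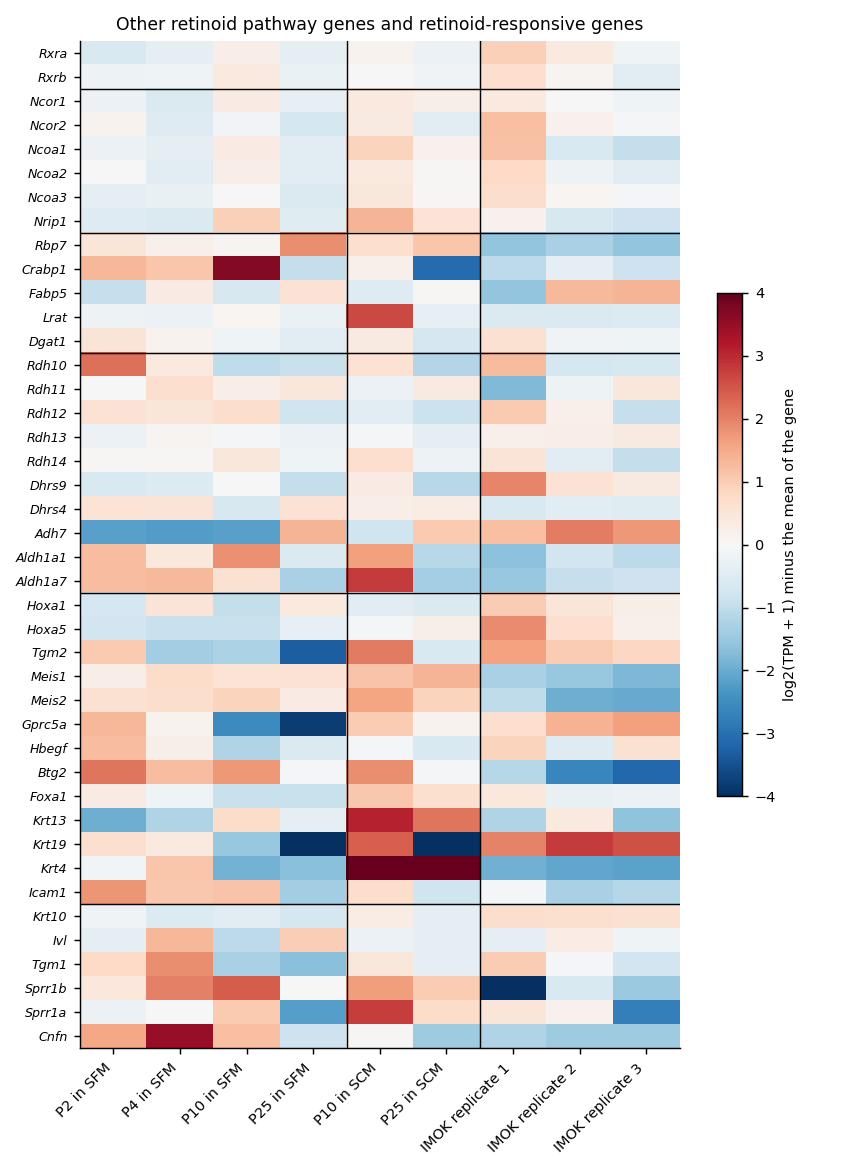
log2(TPM + 1) minus the mean of each gene over the 9 libraries, for the 42 other pathway and retinoid-responsive genes with at least 5 TPM in 1 library or more. Colours saturate at 4 in either direction, and horizontal lines separate the lists, from RXRs and coregulators to binding, synthesis, induced and squamous genes. *Krt4* is high in both SCM columns only, and *Lrat* at P10 in SCM only.

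Against IMOK, 3 of the 20 retinoid-responsive genes were higher in SFM (*Meis1*, *Meis2* and *Btg2*) and 3 lower (*Tgm2*, *Gprc5a* and *Krt19*), beside 2.57% and 2.90% of all genes. *Meis1*, a homeobox gene, was higher by 2.53 (adjusted p = 0.00593) and *Krt19*, a keratin of simple epithelia, lower, with a log2 fold change of -6.76 (adjusted p = 0.00551, edgeR). In SCM 5 were higher (*Meis1*, *Meis2*, *Btg2*, *Krt13* and *Krt4*) and 1 lower (*Krt19*), beside 3.19% and 3.67% of all genes. At P10 in SCM, however, *Krt19* (287 TPM) lay within the IMOK range of 219 to 384 TPM, and only P25 in SCM (2.32 TPM) lay below it. *Krt13*, the keratin partner of *Krt4*, was higher by 3.37 (adjusted p = 0.0380, edgeR), and *Krt4* had an adjusted p of 0.00442. Leaving out either SFM library ended all 6 calls of the SFM comparison, and leaving out either SCM library those of the SCM comparison. Of the 19 tested without IMOK replicate 1, 6 were called higher and 6 lower in SFM, beside 15.1% and 16.3% of all genes, and 9 higher and 3 lower in SCM, beside 15.7% and 16.2%. Between P25 and P10 0 of the 20 passed. With DESeq2 0 were called higher and 4 lower (*Icam1*, *Krt19*, *Sprr1a* and *Tgm2*), beside 1.54% and 2.97% of all genes. With the 4 mSGc libraries alone 5 of 17 were called lower, beside 4.44% of all genes, and with 9 libraries 2 of 21, beside 0.359%. Leaving out IMOK replicate 1, 1 of 19 was called higher and 5 lower, beside 7.95% and 8.16% of all genes. None was called with limma voom, without TMM factors, without a filter or with at least 10 counts in every library. The same held without IMOK replicate 2 or 3.

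The genes whose log2(TPM + 1) was most like that of *Cyp26b1* over the 9 libraries, out of 12259 genes, were *Setdb1* (Pearson r = 0.977), *Stxbp3b* (0.962), *Adss* (0.953), *Usp7* (0.942) and *Creb1* (0.932). These correlations describe 9 libraries of which 6 come from 1 line, and carry no test. All 5 were lower in the 4 SFM libraries than in the SCM and IMOK libraries, by far less than *Cyp26b1*, with *Setdb1* at 29.8 to 33.0 TPM in SFM, 41.9 to 46.3 TPM in SCM and 38.6 to 46.0 TPM in IMOK.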

How the data were processed

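6 mSGc and 3 IMOK RNA libraries were sequenced. Per the submitters' processing notes the tools were TopHat2 2.1.1, Bowtie2 2.2.6, featureCounts 1.5.1 and DESeq2 1.12.4, with the genome build mm9. The authors deposited raw read counts per gene, without normalization, in 2 tables with gene lengths. The annotation, strand setting and treatment of reads with several positions are not given in the sources used here. No other entry overlapped an exon of the 9 genes.

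TPM was computed from counts and lengths. Counts were tested with edgeR 4.0.16 (TMM, filterByExpr, quasi-likelihood test, Benjamini-Hochberg over all genes tested, threshold 0.05) in R 4.3.3. The fit used 7 libraries (P10 and P25 in both media, and IMOK), with a mean for SFM, SCM and IMOK and a term for passage, and left 3 residual degrees of freedom. P2 and P4 entered only descriptions and the fit of 9 libraries. The medium-by-passage term was added after the data had been seen. Alternatives used DESeq2 1.42.0, limma 3.58.1 (voom), other filters, scalings and sets of libraries. SEs were obtained from each fold change (log2) and the F statistic of its test. The procedure was tested on simulated counts. Promoters were searched with Python 3.11.15. The members and lists were chosen with earlier results of these data known. Genes named are the members, list genes called in a comparison (up to 4 examples outside the medium comparison) and the 5 genes most like *Cyp26b1*. *Krt4*, *Tgm2*, *Gprc5a*, *Lrat*, *Rdh10*, *Aldh1a1* and genes called only in alternatives were chosen after their values were seen.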

Additional observations from a re-analysis of the deposited data

How the results depend on the processing

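The number of genes called depended on the test and the libraries, and 1 library, IMOK replicate 1, moved it most. Between SCM and SFM 0 genes were called, against 214 with DESeq2, 3 without a filter, 2 without the passage term, 2 with 9 libraries, 123 with the 4 mSGc libraries alone, and 0 to 358 when 1 library was left out. Members called were 1 with DESeq2 and 0 to 1 with 1 library left out. Between P25 and P10 the 0 genes became 591 with DESeq2, 57 with 9 libraries, 915 with 4 libraries and 0 to 2052 with 1 left out, and the 0 members became 1, 1, 1 and 0 to 1. For SFM against IMOK the 717 genes became 2029 with DESeq2, 417 with at least 10 counts in every library, 426 without the passage term, 1186 with 9 libraries and 0 to 3996 with 1 left out, and the 0 members 2 (DESeq2), 1 (9 libraries) and 0 to 2. For SCM against IMOK the 898 genes became 2185, 572 and 565 under the first 3 of these and 0 to 4063 with 1 left out, and the 0 members 1 with DESeq2, 1 with voom and 0 to 3. The highest counts of each range came without IMOK replicate 1. The cause was not tested. Without an mSGc library its arm has 1 library, assumed to vary like the other groups. Without TMM factors the SFM split against IMOK was 257 higher and 436 lower, and the SCM split 335 and 496. With voom they were 352 and 275, and 405 and 299. DESeq2 called 1.54% of all genes higher and 2.97% lower between P25 and P10. Its shares were 6.65% and 8.85% for SFM against IMOK, and 7.47% and 9.22% for SCM. With 9 libraries they were 0.0674% and 0.359% between passages, and 3.98% and 4.90% for SFM against IMOK. With 4 libraries 3.22% and 4.44% were called between passages.

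The log2 difference turned sign in some settings. With 1 library left out, that of *Aldh1a3* between media ran from -2.397 to 1.844, and between P25 and P10 those of *Rarg* from -0.243 to 0.204, *Cyp26b1* from -0.711 to 1.385 and *Crabp2* from -0.467 to 1.307. For SFM against IMOK they ran from -0.545 to 0.098 (*Rara*), -0.104 to 0.340 (*Rarg*) and -1.404 to 2.813 (*Aldh1a3*), and for SCM against IMOK from -0.279 to 1.807 (*Cyp26b1*) and -1.672 to 2.546 (*Aldh1a3*). Other sign changes were those of *Rarg* between P25 and P10 without a filter (0.008) and with 9 libraries (0.117), of *Rara* (0.129) and *Dhrs3* (0.238) with 9 libraries, and of *Rarg* in SFM against IMOK without TMM factors (-0.011). In CPM scaled with TMM factors, as in TPM, 5 of 9 members (the 4 tested ones and *Rarb*, which failed the filter) had both SCM libraries above both SFM libraries of P10 and P25, as had 21.8% of genes tested, by TPM. The passage term of the fit blocked P10 and P25 across the media. A block on replicate numbers could not be added, since each mSGc condition has 1 library.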
